A study of Mus musculus with 27 samples.

Results

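Naive Pluripotency is 1 of the 7 cell states that the authors assigned to mouse embryonic stem cells (mESCs) from their single-cell transcriptomes. It comprised 647 of the 4147 mESCs in the deposited table (15.6%), taken as the cells that carry the only state name with exactly this number of cells. The state coincided with a single Leiden cluster, which held no cell of another state. The deposited values are given per cell and not per gene, so the levels of Nanog, Zfp42 and Klf2, known genes of naive pluripotency, were not analysed here and the name rests on the authors' annotation.

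Naive pluripotency is the state of the epiblast before implantation, in which a cell can still form all tissues of the embryo. Leukaemia inhibitory factor (LIF) sustains it in culture through STAT3. Inhibition of the kinase GSK3 stabilises beta-catenin and relieves repression of pluripotency genes, and inhibition of MEK blocks the ERK signal that leads cells towards differentiation. Nanog is a homeodomain factor and Klf2 a zinc-finger factor of the naive network, and Zfp42, also known as Rex1, is a widely used reporter of the naive state. mESCs divide fast and spend little time in G1, so that most cells of a growing culture are in S phase or in G2 and mitosis.

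All mESCs were of the B6 line (129S1/SvImJ / C57BL/6) and were maintained in ESLIF medium with serum and LIF. The 2i medium used for the pulses contains LIF and the inhibitors CHIR99021 (GSK3) and PD032509 (MEK), so LIF was present in every group. The pre-culture lasted 96 h, and the media below are those in which it ended. Condition 1 was never moved to 2i, whereas condition 2 spent the full 96 h in it. The paper also takes the ESLIF control, condition 1, to represent naive pluripotency, a use of the word apart from the state described here. Conditions 3 and 4 were in 2i at the end, over 48 h and 24 h. In conditions 5 and 6 a 2i pulse of equal length, 48 h and 24 h respectively, was followed by as long a return to ESLIF. Living cells of each culture were sorted into 2 plates with 384 wells each and sequenced with CEL-seq2, which counts transcripts by molecular identifiers. The 2 plates of a condition are technical replicates of 1 culture, so spread between plates does not measure spread between cultures. The table listed 284 to 365 cells per plate, with plate medians between 6845 and 13669 counts per cell.

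Naive Pluripotency cells were found mostly in condition 3, which ended with 48 h in 2i, and rarely in conditions 2 and 4. Condition 5, where 48 h in 2i was followed by ESLIF, held 0 such cells. The state was defined by clustering these same cells, and the authors describe most of their clusters as made up mainly of 1 condition. Concentration in 1 condition is thus not particular to this state. Condition 3 contributed 301 cells in replicate 1, which is 82.7% of that plate (95% Wilson interval 78.5 to 86.2%), and 246 cells in replicate 2, or 71.3% (66.3 to 75.8%). The mean of both plates was 77.0 ± 8.05% (SD, n = 2 plates). In condition 2 there were 19 cells (5.23%, interval 3.38 to 8.03%) and 27 cells (7.69%, 5.34 to 11%). Condition 4 gave 40 cells (11.3%, 8.41 to 15%) and 13 cells (4.58%, 2.69 to 7.67%). The plates of conditions 2 and 4 thus overlapped in their shares, and both plates of condition 3 lay far above them. The intervals cover counting error only, and with 1 culture per condition no test between conditions was possible.

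**Figure D1:**
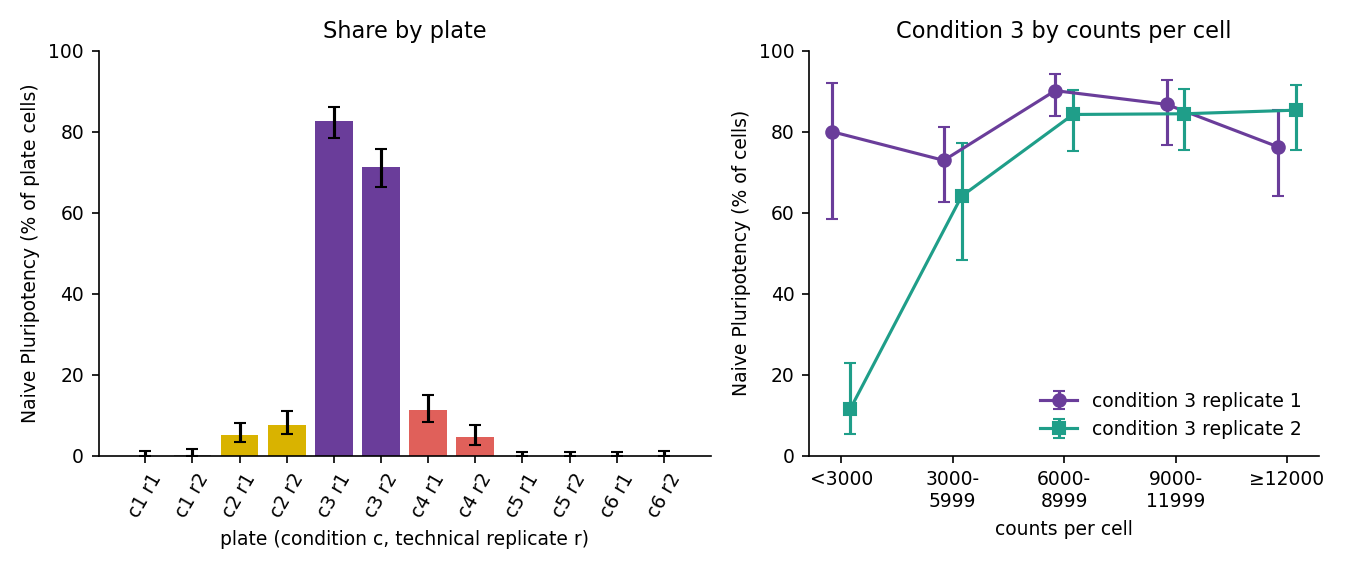
Left, share of Naive Pluripotency cells among the cells of each of the 12 plates (c, condition; r, technical replicate; percent), with bars for the share and error bars for the 95% Wilson interval. Right, the same share within 5 classes of counts per cell on both plates of condition 3, where replicate 1 and replicate 2 lie apart below 3000 counts (80.0% and 11.5%) and have overlapping intervals in the other classes.

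In conditions 1, 5 and 6, which ended in ESLIF, the state was hardly found. Of the 6 plates, 5 held no such cell, which allows a share of up to 0.822 to 0.977% per plate. The exception was 1 cell on replicate 2 of condition 1. With 375 counts and 330 genes it had the lowest total of all 4147 cells, and with 38.6% mitochondrial reads it ranked 2 of all cells. The cell lay under 500, the minimum of reads that the authors state, although the deposited counts may not be the measure they filtered. All 15 of its nearest cells on the UMAP were Naive Pluripotency cells. The state of this cell therefore rests on very few transcripts.

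The share of Naive Pluripotency differed between the plates of condition 3 by 11.4 percentage points, and this difference was concentrated in cells with few counts. Among cells with fewer than 3000 counts, 16 of 20 on replicate 1 were in Naive Pluripotency (80.0%, interval 58.4 to 91.9%), but 6 of 52 on replicate 2 (11.5%, 5.40 to 23.0%). Of the other low-count cells on replicate 2, 28 were annotated as Ground State Pluripotency, 12 as Epiblast-like and 5 as Primed Pluripotency. Between 3000 and 5999 counts the shares were 72.9% of 85 cells and 64.1% of 39 cells. In the class from 6000 to 8999 counts they were 90.2% and 84.3%, and from 9000 to 11999 counts 86.8% and 84.4%. From 12000 counts upwards the order was the opposite, with 76.3% on replicate 1 and 85.3% on replicate 2, although the intervals overlapped (64.0 to 85.3% and 75.6 to 91.6%). With a minimum of 3000 counts per cell, chosen after seeing the data, replicate 1 had 82.8% (285 of 344 cells, interval 78.5 to 86.5%) and replicate 2 had 81.9% (240 of 293, 77.1 to 85.9%).

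Cells with fewer than 3000 counts made up 5.49% of the cells on replicate 1 and 15.1% on replicate 2, although replicate 2 had more reads (33458578 against 26111770 before mapping). Of the cells outside Naive Pluripotency, 4 of 63 on replicate 1 and 46 of 99 on replicate 2 had fewer than 3000 counts. The 58 Ground State Pluripotency cells of replicate 2 had a median of 3122.5 counts, compared to 6905 counts for the 30 such cells of replicate 1. Each cell name carries a number from 1 to 384, whose relation to the position on the plate is not given in the sources used here. On replicate 2, cells numbered 1 to 48 had the lowest share of Naive Pluripotency among 8 equal blocks of numbers (21 of 44 cells, 47.7%, interval 33.8 to 62.1%), with 12 cells under 3000 counts, and the block from 145 to 192 followed with 59.5% (25 of 42 cells) and 14 cells under 3000 counts. The other 6 blocks of this plate reached 68.8 to 85.7%, and all 8 blocks of replicate 1 lay between 78.7 and 87.5%. The part of counts per cell or of the cell number in the assignment to a state was not tested.

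In condition 4, the 25 Ground State Pluripotency cells included 24 with fewer than 3000 counts, compared to 5 of the 53 Naive Pluripotency cells. Below 3000 counts, the Naive Pluripotency share on replicate 1 was 4.17% (2 of 48 cells, interval 1.15 to 14.0%), compared to 11.3% over the whole plate. On replicate 2 it was 4% (3 of 75 cells, 1.37 to 11.1%), compared to 4.58%. Each interval covers the share of the whole plate, so a clear fall of the share in low-count cells was not shown on either plate of condition 4. In condition 2 the Naive Pluripotency share was 3.85% and 3.03% below 3000 counts on its plates, and it was highest between 6000 and 8999 counts, with 8 of 94 cells (8.51%, interval 4.38 to 15.9%) on replicate 1 and 8 of 32 cells (25%, 13.3 to 42.1%) on replicate 2. On replicate 1 of condition 4 the class from 9000 to 11999 counts had the highest share, with 12 of 58 cells (20.7%, 12.3 to 32.8%), and on replicate 2 that from 6000 to 8999 counts, with 4 of 56 cells (7.14%, 2.81 to 17.0%). These classes hold few cells of the state, and their intervals are wide.

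As a whole, Naive Pluripotency contained few shallow cells. Its cells had 375 to 26984 counts with quartiles of 6605.5 and 11569.5, and 330 to 6860 genes with quartiles of 3384 and 4664.5. Only 12 cells (1.85%) had fewer than 1000 counts, whereas it was 10.5% of the Ground State Pluripotency and 5.15% of the Epiblast-like cells. The median was 8618 counts, between 7211 in Ground State Pluripotency and 10021 in Epiblast-like cells. As plates differed in depth, the state was next compared with the other cells of the same plate. The authors regressed counts and mitochondrial percentage out before the clustering that defined the state. The comparisons below thus concern clusters already adjusted for both, and a difference that was not called does not show equal depth or quality.

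On the plates of condition 2, Naive Pluripotency cells had medians of 7594 and 9741 counts, and the other cells 7566 and 8934. On replicate 1 of condition 3 the medians were 7528 and 6471 counts for Naive Pluripotency and other cells, and on replicate 2 they were 9569 and 3964. In condition 4 they were 11496 and 11901.5 counts on replicate 1 and 8484 and 7954 on replicate 2. Naive Pluripotency was higher on 5 of 6 plates, and the largest gap by far was on replicate 2 of condition 3, where many other cells were shallow. The mean difference was 1270 ± 2189 counts (SD over 6 plates, exact two-sided sign-flip permutation test, p = 0.0938, 0.281 after Benjamini-Hochberg adjustment over 3 measures) and was not called. Without replicate 2 of condition 3 it was 403 counts (exact p = 0.188), and with at least 3000 counts per cell, chosen after seeing the data, it was -556 counts with Naive Pluripotency lower on 4 of 6 plates (exact p = 0.281). The smallest p that 6 plates allow is 0.0313, which does not pass the adjustment over 3 measures unless another measure also reaches it. With the 3 conditions as the unit the smallest p is 0.25, which cannot be called.

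**Figure D2:**
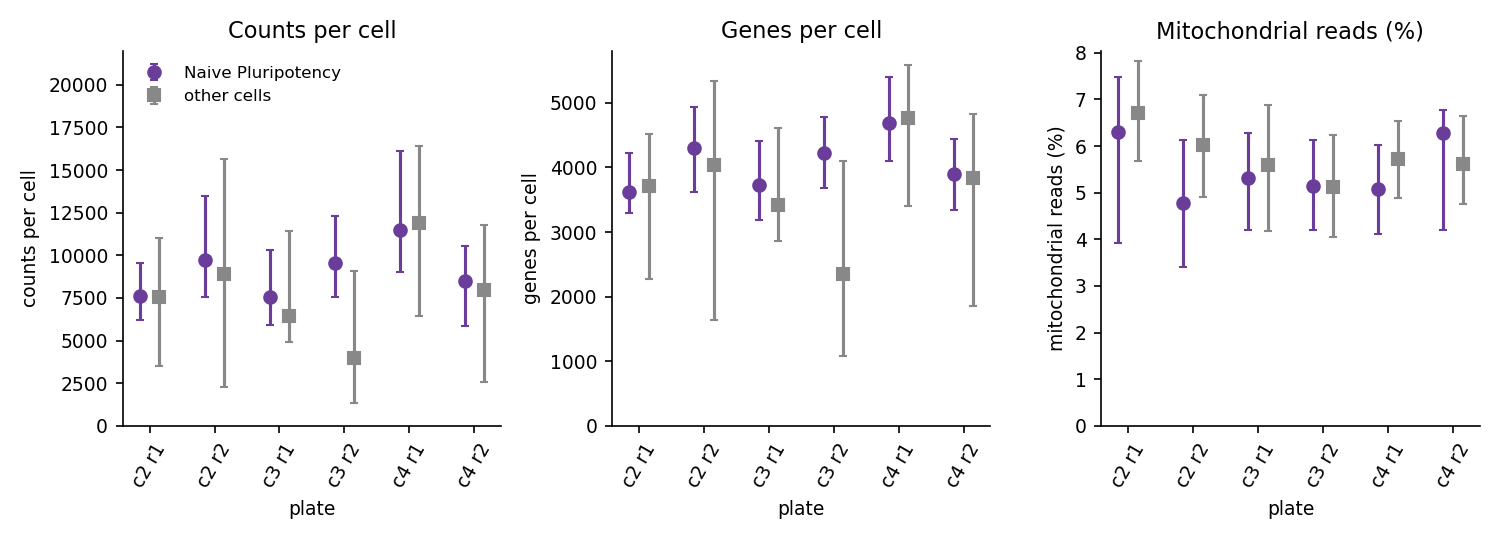
Median (points) and quartiles (error bars) of counts per cell, genes per cell and the percentage of mitochondrial reads for Naive Pluripotency cells (circles) and all other cells (squares) on the 6 plates of conditions 2, 3 and 4 (c, condition; r, technical replicate). The widest gap in counts and genes is on replicate 2 of condition 3, with 9569 against 3964 counts.

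The number of genes per cell followed the counts. Naive Pluripotency cells had medians of 3613 and 4304 genes in condition 2, 3734 and 4224.5 genes in condition 3, and 4695 and 3893 genes in condition 4. Compared to the other cells of the plate, the difference ranged from -101 to 1872.5 genes, with the highest value again on replicate 2 of condition 3. The mean difference was 387 ± 748 genes (SD over 6 plates, the same exact permutation test, p = 0.219, adjusted 0.328) and was not called, and it was 89.5 genes without that plate. Among cells with 6000 to 8999 counts the medians of Naive Pluripotency and other cells were 3641 and 3557 genes on replicate 1 and 3744 and 3725.5 genes on replicate 2 of condition 3. At like depth, both kinds of cells thus had similar numbers of genes on these plates. Cells could not be thinned to an equal number of transcripts, since no values per gene were used.

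The mitochondrial percentage of Naive Pluripotency cells was 5.26% as a median, with quartiles of 4.16 and 6.28%. On the plates the median was 6.31 and 4.77% in condition 2, 5.31 and 5.15% in condition 3, and 6.28% on replicate 2 and 5.08% on replicate 1 of condition 4. It was lower than in the other cells of the plate on 4 of 6 plates. On replicate 2 of conditions 3 and 4 it was higher, by 0.0156 and 0.655 percentage points. The mean difference was -0.316 ± 0.641 points (SD over 6 plates, the same exact permutation test, p = 0.344, adjusted 0.344) and was not called. With means over cells in place of medians it was -0.504 ± 0.413 points and lower on 6 of 6 plates (exact permutation test, p = 0.0313, adjusted 0.0938). This p is the smallest that 6 plates allow. A single measure at this p cannot pass the adjustment over 3 measures unless another measure also reaches it, so this outcome could not be called.

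A small group of Naive Pluripotency cells had hardly any mitochondrial reads. In 14 cells (2.16%) the percentage was under 1%, with a median of 0.627%. Of these, 6 came from replicate 1 and 8 from replicate 2 of condition 3, which is 2.56% of the 547 Naive Pluripotency cells of this condition. There were 0 among the 99 Naive Pluripotency cells of conditions 2 and 4 together. This allows a share of up to 3.03%, which is not below the 2.56% of condition 3 and covers counting error only. With 1 culture per condition, a difference between conditions could not be tested. These cells had a median of 8844 counts (2705 to 13912), and 2 of them had fewer than 3000 counts. In Mesoderm Progenitors, the state with the lowest mitochondrial percentage, 19 of 28 cells were under 1%. Over all states, 19 of 709 cells in condition 3 were of this kind, 6 of 714 in condition 2 and 4 of 638 in condition 4. Naive Pluripotency held 547 of the 709 cells of condition 3 and 14 of these 19, so such cells were not particular to the state.

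The cell cycle of the state was described by the authors' S-phase score and G2M score, which have no unit, and by the phase called from them. In all 4147 cells the deposited phase was the higher of both scores, or G1 where both were negative, with 0 exceptions. Scores come from genes of the same cells that were clustered, and the phase was regressed out before clustering, so differences between states are given without a test. Of the Naive Pluripotency cells, 351 were called S (54.3%, interval 50.4 to 58.1%), 289 G2M (44.7%, 40.9 to 48.5%) and 7 G1 (1.08%, 0.525 to 2.22%). In 86.2% of them both scores were above 0, so the call mostly compares 2 positive scores, and in 70 cells (10.8%) the scores differed by less than 0.01. Ground State Pluripotency had 51.0% S, 47.3% G2M and 1.69% G1 cells, and Epiblast-like cells had 49%, 50.3% and 0.664%. The interval of the S share of Naive Pluripotency overlapped with those of both.

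The shares of S and G2M calls had overlapping intervals on both plates of condition 3. The median S-phase score of their Naive Pluripotency cells was 0.0449 (quartiles 0.0281 to 0.0663) on replicate 1 and 0.0487 (0.0329 to 0.0717) on replicate 2, and the median G2M score was 0.0379 (0.0161 to 0.0769) and 0.0389 (0.0162 to 0.0833). S-phase calls made up 55.1% (interval 49.5 to 60.7%) and 57.7% (51.5 to 63.7%), and G2M calls 44.5% and 41.9%. Each plate had 1 cell in G1. The medians differed between plates by 0.00372 for the S-phase score and 0.00107 for the G2M score, which was not tested.

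**Figure D3:**
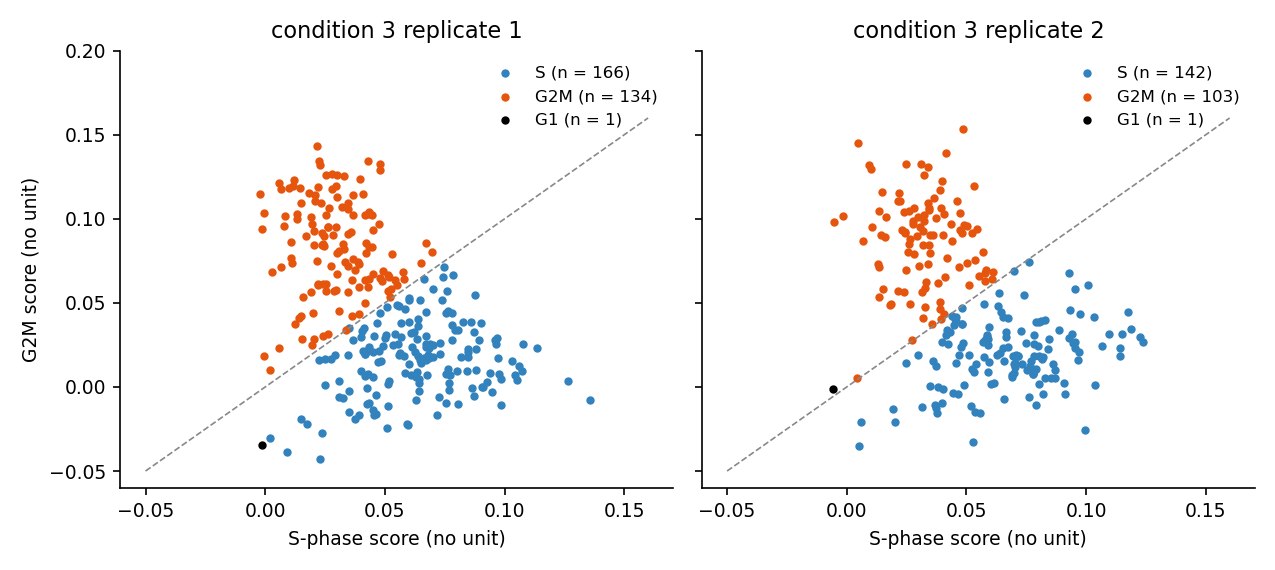
S-phase score (x axis) and G2M score (y axis), both without a unit, of each Naive Pluripotency cell on the plates of condition 3, coloured by the deposited phase. The dashed line marks equal scores, and the phases meet along it, with 166 S, 134 G2M and 1 G1 cells on replicate 1 and 142, 103 and 1 on replicate 2.

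The few Naive Pluripotency cells of conditions 2 and 4 deviated in different directions. In condition 4 their median S-phase score was 0.0362 and 0.0192 on the 2 plates, below the 0.0439 and 0.0414 of the other cells, and 39.6% of the 53 cells were in S phase (interval 27.6 to 53.1%). In condition 2 the median S-phase score was 0.0297 and 0.0503, lower than in the other cells on replicate 1 and higher on replicate 2, and the median G2M score was 0.0331 and 0.0258, below the 0.0404 and 0.0472 of the other cells. Of the 7 cells in G1, 3 came from condition 2, 2 from condition 3 and 2 from condition 4. The G1 cells had 472 to 8302 counts. With 13 to 40 cells per plate, medians of conditions 2 and 4 are imprecise.

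Within the state, cells called G2M held more transcripts than cells called S. On replicate 1 of condition 3 the median was 8347.5 counts in G2M and 7104 in S, a ratio of 1.18, and on replicate 2 it was 10955 and 9139.5 counts, a ratio of 1.2. The ratio was above 1 on 5 of the 5 plates with at least 5 Naive Pluripotency cells in both phases, and ranged from 1.08 to 1.2. Other cells showed the same direction on 12 of 12 plates, with a median ratio of 1.23. On the plates of condition 3, however, the ratio in other cells was only 1.00 on replicate 1 and 1.05 on replicate 2. The share of S-phase calls among the Naive Pluripotency cells of replicate 2 was 67.1% between 9000 and 11999 counts and 32.8% from 12000 counts upwards. On replicate 1 the corresponding values were 40.7% and 51.1%, so the fall between these classes did not recur there.

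On the UMAP, Naive Pluripotency cells lay next to each other and between their 2 neighbouring states. UMAP and clusters were made from the same data, so the following values describe the embedding and were not tested. Of the 15 nearest cells of each Naive Pluripotency cell, 92.4% were of the same state, where a random mixture of all mESCs would give 15.6%. Epiblast-like cells made up 4.12% of the neighbours, Ground State Pluripotency 3.17% and Primed Pluripotency 0.278%, and no neighbour was in Ectoderm Priming or one of both progenitor states. The share of the own state was lower than in Ground State Pluripotency (95.5%), Epiblast-like (94.2%) and Primed Pluripotency cells (98.7%). All 15 neighbours were of the own state for 495 cells (76.5%), a minority for 32 cells (4.95%) and none for 5 cells.

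**Figure D4:**
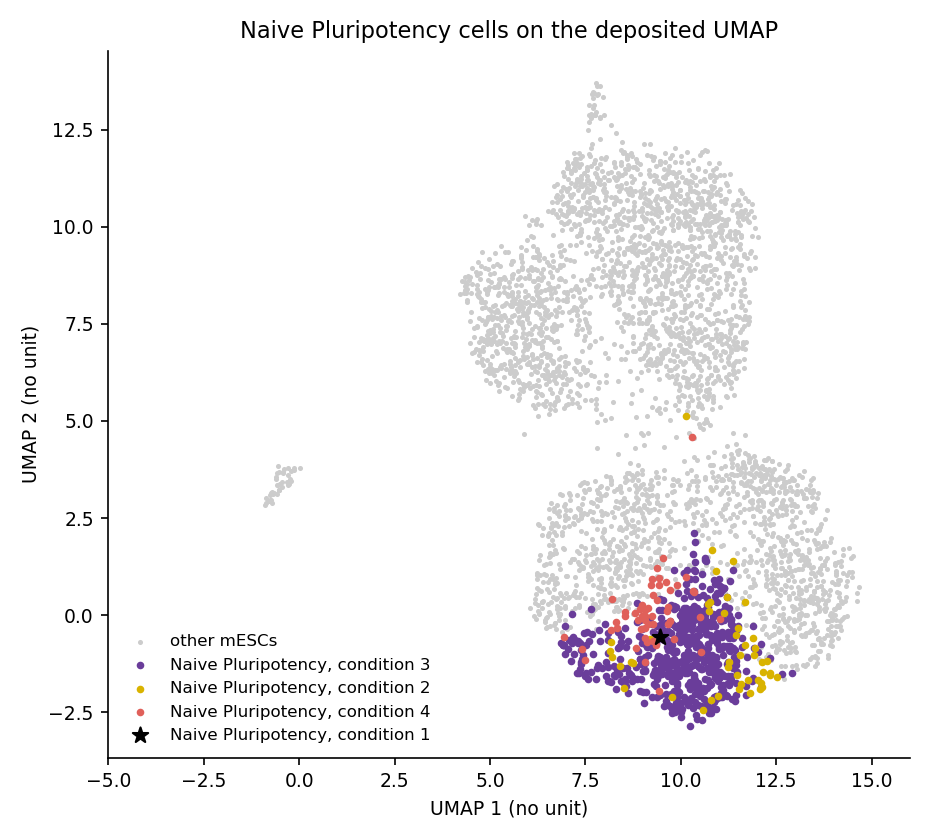
Deposited UMAP coordinates (no unit) of all 4147 mESCs, with Naive Pluripotency cells coloured by condition and all other cells in grey. The 46 cells of condition 2 (median 11.4 on UMAP 1) lie to the right and the 53 cells of condition 4 (median 9.24) to the left of the median of condition 3 (10.2), and the cell of condition 1 is marked by a star.

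The neighbours depended on the condition a cell came from. In condition 3, 95.7% and 94.6% of the neighbours on the 2 plates were in Naive Pluripotency. For the cells of condition 2 this share was 80.4% on replicate 1 and 83.7% on replicate 2, and Ground State Pluripotency, the main state of that condition, made up 14.4% and 15.8%. In condition 4 the share was 69.7% and 81.0%, and the main state there, Epiblast-like, made up 30.2% and 11.8%. Naive Pluripotency cells of condition 2 thus lay towards Ground State Pluripotency and those of condition 4 towards Epiblast-like cells. On the plates of condition 2, at most 0.494% of the neighbours were Epiblast-like, and on those of condition 4 at most 1.03% were in Ground State Pluripotency. Primed Pluripotency made up 5.26% on replicate 1 of condition 2 and 6.15% on replicate 2 of condition 4, the plates with 19 and 13 cells, and was not found in condition 3.

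**Figure D5:**
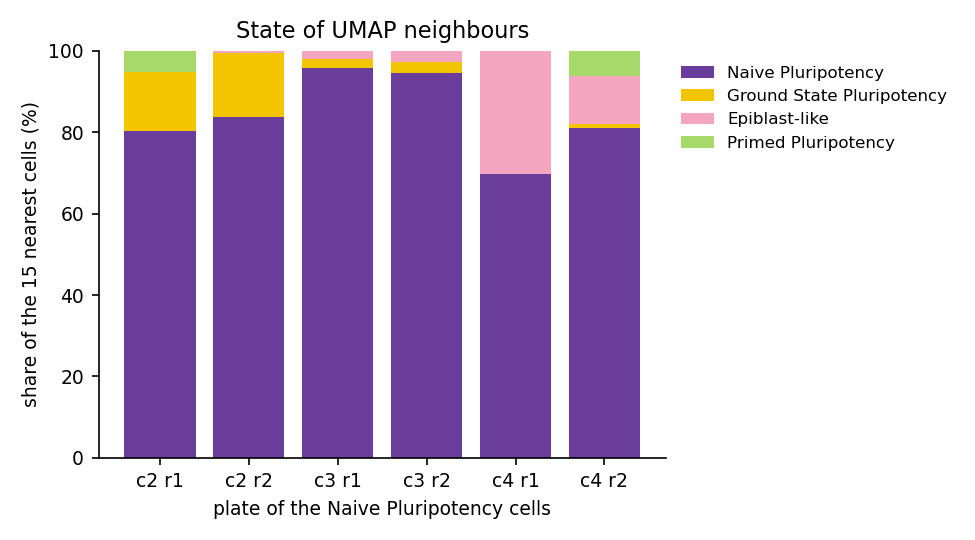
Cell state of the 15 nearest cells on the UMAP (percent of neighbours, stacked bars) for the Naive Pluripotency cells of the 6 plates of conditions 2, 3 and 4 (c, condition; r, technical replicate). Naive Pluripotency makes up 69.7 to 95.7% of the neighbours, and the remainder is mostly Ground State Pluripotency in condition 2 and Epiblast-like in condition 4.

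The plates of condition 3 were well mixed within the state. Among neighbours that were Naive Pluripotency cells of condition 3, 55.7% of those around cells of replicate 1 came from replicate 1, where a random mixture would give 54.9%, and 46.7% of those around cells of replicate 2 came from replicate 2, where it would give 44.9%. The median position was 10.2 on UMAP 1 for both plates, and -1.07 and -0.871 on UMAP 2. The deepest cells had more neighbours of other states than cells of middle depth. With at least 12000 counts, 90.7% and 90.4% of the neighbours were in Naive Pluripotency on replicates 1 and 2, against 98.3% and 97.5% from 9000 to 11999 counts. The 6 cells of replicate 2 with fewer than 3000 counts had 73.3% neighbours of their own state, and the 16 such cells of replicate 1 had 95%. Over all their Naive Pluripotency cells, the 2 plates differed in depth, with a median 2041 counts and 490.5 genes higher on replicate 2, while the medians differed by -0.164 percentage points in mitochondrial reads.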

How the data were processed

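The table of mESCs deposited by the authors holds 1 line per cell. Per the labels and the methods of the study, reads were trimmed with cutadapt 4.1, mapped with STAR 2.5.3a to a GRCm38 genome with masked strain differences, counted per gene and deduplicated. The authors state minimums of 500 reads and 100 genes and a maximum of 40% mitochondrial reads per cell. The deposited table holds 28 cells under 500 counts, 2 of them in Naive Pluripotency. The authors excluded mitochondrial, Malat1 and ribosomal reads after this filter, so the deposited counts may not be the measure that was filtered. Counts, mitochondrial percentage and phase were regressed out before UMAP and Leiden clustering at a resolution of 0.5. The authors' counts per cell are whole and not normalized. Mitochondrial reads, a fraction of all reads in the deposited table, are given here in percent. Both cell cycle scores, as deposited, have no unit. What the table calls Core Pluripotency and Shh Signalling is named Ground State Pluripotency and Ectoderm Priming in the study, with equal numbers of cells. The deposited name Cell Cycle Arrest/Mesoderm Progenitors is likewise Mesoderm Progenitors in the study. The study's names are used. Reads per plate are the sum of 4 lanes of the deposited report of read counts, where 3 further library names fit none of the samples and were left out.

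The labels of the samples gave the condition and replicate of every plate. Medians, shares and 95% Wilson intervals were computed per plate with Python 3.11.15, pandas 2.3.3 and SciPy 1.17.1. Where no cell was found, the share of 3 cells is given as the limit. Naive Pluripotency was compared with the other cells of the same plate on plates with at least 5 cells of each kind. The 3 measures of depth and quality were tested with the exact two-sided sign-flip permutation test over plates, with a threshold of 0.05 after Benjamini-Hochberg adjustment, and the test was checked on simulated data. Other values have no test. Neighbours were the 15 cells at the smallest distance in the deposited UMAP. Classes of counts were cut at 3000, 6000, 9000 and 12000. The state, the measures and the comparisons were chosen with earlier results of these data known. No gene is named for its values, and doublets were not called because no values per gene were used. Of the cell numbers, 334 occur on both plates of condition 3 and 206 belong to Naive Pluripotency on both. Gastruloid cells and adapter metrics were not used here.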

Additional observations from a re-analysis of the deposited data

Results flagged for a closer look

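Replicate 2 of condition 3 stood apart from the other 5 plates in the difference between Naive Pluripotency and other cells, by 5605 counts and by 1872.5 genes per cell. Its gap to the next plate exceeded the 95% critical value of Dixon's test for 6 values, 0.625 of the range, in both measures. Of the 5 measures examined in this way, chance would flag about 1 in 20 if the values were independent. The 6 plates come from 3 cultures, and genes per cell followed the counts, so neither the values nor both flags are independent. The plate held 46 other cells with fewer than 3000 counts, and their part in the difference was not tested.

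Against all other cells of the plate, the cell cycle scores of different conditions moved in opposite directions, which was not tested. The S-phase score of Naive Pluripotency cells was higher than in the other cells on both plates of condition 3 (mean difference 0.00557) and lower on both plates of condition 4 (-0.0149). The direction in condition 3 depended on the state compared. There, the differences were 0.00196 and 0.00695 to Ground State Pluripotency, but -0.000898 and -0.00897 to Epiblast-like cells. In condition 4, where the other cells were mostly Epiblast-like, the differences to that state were -0.00799 and -0.0221. The G2M score was lower on both plates of condition 2 (-0.0143) and higher on both plates of condition 4 (0.00564). In condition 3 the differences were only -0.00102 and -0.00208 (mean -0.00155), small beside the quartiles of the state on these plates (0.0161 to 0.0769 and 0.0162 to 0.0833). Against Epiblast-like cells alone, the sign of the G2M difference varied between the plates of condition 3 (0.0024 and -0.00152) and of condition 4 (-0.000171 and 0.00739).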

How the results depend on the processing

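Of 101 values under alternative settings, 97 kept their direction and their side of the threshold or moved by less than the spread between plates. Some of these outcomes were fixed in advance, so the count does not measure robustness. Leaving out 1 of the 2 plates of condition 3 always moves their mean by less than their SD. Requiring at least 10 cells of each kind per plate, or taking conditions as the unit, left the mean within-plate differences unchanged. With at least 3000 counts per cell, chosen after seeing the data, the difference to other cells reversed to -556 counts and -87.4 genes per cell, and the setting removes the shallow cells by construction. The share of Naive Pluripotency in condition 3 rose to 85.4% with at least 6000 counts, also chosen after seeing the data, and was 71.3 to 82.7% on single plates. With 30 neighbours, 91.5% of neighbours were of the own state. Leaving out 1 plate at a time gave differences of 403 to 1605 counts, 89.5 to 484 genes and -0.511 to -0.129 points of mitochondrial reads, with the lowest values for counts and genes without replicate 2 of condition 3. None of these can be called, as the smallest p of 5 plates is 0.0625. No paired analysis was possible because no test set conditions that share replicate numbers against each other. The 3 tests already compare Naive Pluripotency with other cells within each plate. Each condition is 1 culture, which limits all values.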
